A study of Mus musculus with 10 samples.

Results

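Brown adipose tissue burns fuel to make heat, and it also signals to other tissues through secreted proteins and lipids, often called batokines. The 10 genes described here are a set of such factors together with the receptor through which the hormone FGF21 acts: Fgf21, Fgf1, Fgfr1, Klb, Nrg4, Gdf15, Bmp8b, Slit2, Ptgds and Enpp2. They were chosen by name, and all 10 were found among the 27267 genes of the deposited table. Enpp2, which encodes the secreted enzyme autotaxin, was lower in each of the 5 libraries labelled Mgp-KO than in any of the 5 wild-type libraries, and Nrg4, which encodes the secreted ligand neuregulin 4, averaged 54.1% of wild type with 1 crossing of a library from each group. Neither passed the main test, which was limma over all 10 libraries without further terms, whereas DESeq2 on the same libraries passed Enpp2. Both passed some of the alternatives given further on. Fgfr1 and Klb, the receptor and co-receptor of FGF21, had nearly the same mean level in both groups and instead differed between replicates 1 to 3 and replicates 4 and 5. Fgf21 itself, Gdf15 and Bmp8b were at or near the limit of detection.

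FGF21 is an endocrine member of the fibroblast growth factor family. It binds a complex of a receptor tyrosine kinase, in adipose tissue mainly FGFR1, and the single-pass membrane protein beta-Klotho, the product of Klb, without which it signals poorly. FGF1 is a paracrine member that binds FGF receptors with heparan sulfate and does not need a Klotho protein. In brown fat, cold and adrenergic signals are known to raise Fgf21, Bmp8b, Nrg4 and Slit2, and the integrated stress response, acting through ATF4, is known to raise Fgf21 and Gdf15.

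RNA came from the interscapular brown adipose tissue (iBAT) of mice, 5 libraries labelled wild type and 5 labelled Mgp-KO, all labelled C57BL/6, male and 4 weeks of age. Both groups received chow. The knockout of Mgp, which encodes matrix Gla protein, an extracellular inhibitor of bone morphogenetic proteins, is global, so that the loss is not limited to a cell type, and these mice are known for vascular disease and a short life span. The study asked how loss of this inhibitor changes gene expression in brown fat. Housing temperature is not stated in the sources used here. The labels give separate libraries and the methods speak of 5 pairs of mice, and p-values measure only the spread between these libraries.

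Between 9.25 and 22.3 M reads per library were recovered on genes, 19.6 to 22.3 M in replicates 1 to 3 and 9.25 to 13.3 M in replicates 4 and 5. The share of reads on the mitochondrial rRNA genes was 0.771% to 1.72% in the first set and 6.50% to 16.7% in the second. Reads of Mgp were at 0 or 1 in the libraries labelled Mgp-KO 1 to 3, but 309 and 282 reads were counted in Mgp-KO 4 and 5, against 485 to 805 in wild type. In normalized counts, which take depth into account, Mgp-KO 4 and 5 had 500 and 331, against 466 to 1146 in wild type. These values go against the labels of these 2 libraries. Wild type 2 held 6803 reads of Xist, against its male label. Markers of brown adipocytes were high in all libraries, with a summed normalized count of 213506 to 411585 in wild type and 150030 to 300995 in the libraries labelled Mgp-KO, and of the 12 markers 10 had a log2 fold change below 0 and 2 above, with 0 past limma's test. Summed skeletal muscle markers reached 28698 in Mgp-KO 2 and 29312 in Mgp-KO 5 and ran from 35.3 to 5276 in the other 8 libraries. All labels were kept as given, and values are shown for every library.

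The promoters of Fgf21 and Nrg4 are shown because that of Fgf21 holds letters known from regulators whose genes are described further on, and because Nrg4 had the highest level per length among the 10 genes. Both sequences are the RefSeq window of 250 bases before to 50 bases after the start site on GRCm38.p6, written 5′ to 3′ on the gene's strand, and capitals mark matches to the motifs named after them. The Fgf21 window lies at chr7:45615441-45615740 on the minus strand and the Nrg4 window at chr9:55283576-55283875 on the minus strand.

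Fgf21: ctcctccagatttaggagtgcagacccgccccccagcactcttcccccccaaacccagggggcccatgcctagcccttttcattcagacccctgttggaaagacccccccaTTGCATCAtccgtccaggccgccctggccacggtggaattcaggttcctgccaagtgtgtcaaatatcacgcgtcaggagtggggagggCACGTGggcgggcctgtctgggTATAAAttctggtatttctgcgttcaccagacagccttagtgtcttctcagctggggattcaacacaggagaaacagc

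Nrg4: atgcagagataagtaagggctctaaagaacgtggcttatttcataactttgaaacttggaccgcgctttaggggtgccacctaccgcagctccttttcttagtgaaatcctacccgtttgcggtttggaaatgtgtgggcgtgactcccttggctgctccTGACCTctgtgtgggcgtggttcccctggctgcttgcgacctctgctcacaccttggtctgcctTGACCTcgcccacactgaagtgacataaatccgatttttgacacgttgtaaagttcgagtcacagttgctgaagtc

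The following motifs were searched on both strands: CACGTG, an E-box that ChREBP and clock proteins can bind, TGATGCAA, the core shared by C/EBP-ATF elements, TGACGTCA, the cAMP response element, AGGTCA, the half-site of nuclear receptors, and TATAAA, the TATA box. The Fgf21 window held TGATGCAA at position -139 on the opposite strand, where it reads TTGCATCA, CACGTG at position -50 and TATAAA at position -28, counted from the start site. The Nrg4 window held AGGTCA at positions -90 and -26, both on the opposite strand, where it reads TGACCT. Of the 10 genes, 7 had an entry, and the others were Fgf1, Fgfr1 and Enpp2. Gdf15 had AGGTCA at position -55 of its first promoter and CACGTG at position -83 of its second, Slit2 had TATAAA at position -28, and no searched letters were found in the windows of Klb, Ptgds and Bmp8b. Among 32851 promoters of this length, CACGTG was present in 7.15%, TGATGCAA in 0.895%, TGACGTCA in 1.79%, AGGTCA in 16.3% and TATAAA in 13.6%, and none of these matches overlapped another in the Fgf21 or Nrg4 window. A match describes the sequence only, and binding was not measured.

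The genes were first ordered by level, as normalized count per kilobase of exon in the GENCODE annotation of GRCm38. Nrg4 was the most abundant per length in wild type, with 351 ± 51.4 (SD, n = 5), followed by Enpp2 with 298 ± 27.6, and the ranges of these neighbours overlapped. Klb with 139 ± 73.5 and Fgfr1 with 127 ± 47.2 came next, both below every wild-type library of Enpp2. Their order depended on the length used, since by the longest coding transcript Fgfr1 had 248 and Klb 178. Fgf1 with 50.5 ± 19.6 and Ptgds with 45.3 ± 25.7 overlapped each other and changed places in the same way. The remaining 4 genes were far lower, with means of 3.63 for Fgf21, 3.26 for Gdf15, 0.896 for Slit2 and 0.492 for Bmp8b, and each overlapped its neighbour in this order. In the libraries labelled Mgp-KO the same scale gave 190 ± 77.9 for Nrg4, 176 ± 35.5 for Enpp2, 127 ± 84.5 for Klb and 123 ± 50.6 for Fgfr1.

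**Figure D1:**
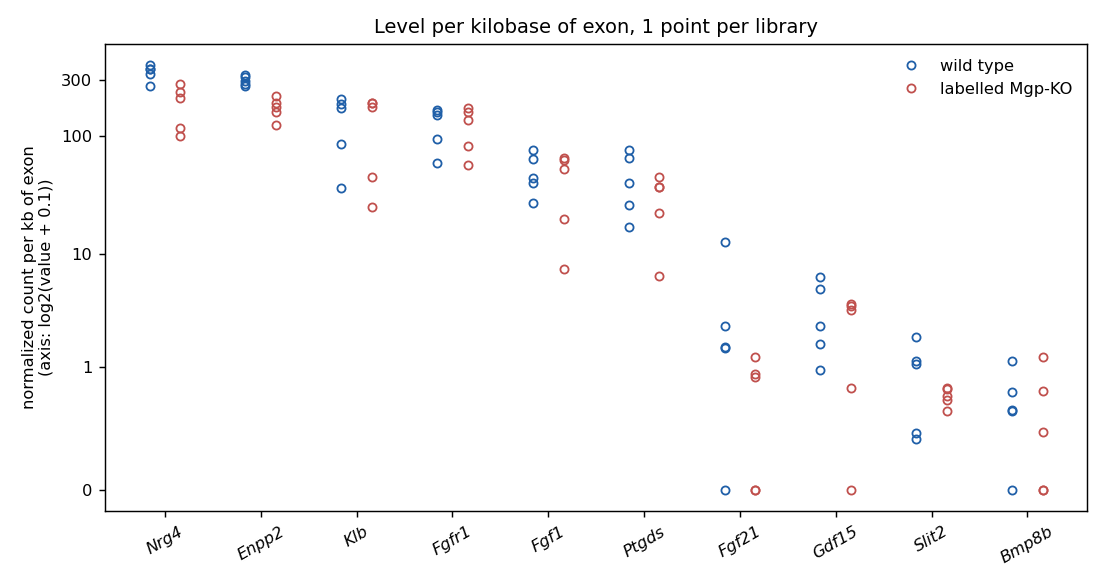
Normalized count per kilobase of exon for each of the 10 genes in each library, on a log2(value + 0.1) axis, with genes ordered by their wild-type mean. Nrg4 and Enpp2 lie highest, at means of 351 and 298 in wild type, and Fgf21, Gdf15, Slit2 and Bmp8b lie at or below 12.7 in every library.

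Of the ligands, Fgf21 (chr7:45613886-45615490, minus strand) had 2, 3, 2, 0 and 7 reads in wild type 1 to 5 and 0, 1, 1, 0 and 1 reads in Mgp-KO 1 to 5. The deposited values were 1.43, 2.25, 1.47, 0 and 12.1 normalized counts in wild type, against 0, 0.765, 0.821, 0 and 1.17 under the Mgp-KO label. Only wild type 5 stood above the floor of 3 reads, worth between 2.15 and 5.19 normalized counts by library depth, and all libraries labelled Mgp-KO were under it. The sums were 14 reads in wild type and 3 in the libraries labelled Mgp-KO, with 7 of the 14 from wild type 5. A genotype difference was therefore not detectable at this depth, and without the filter on low values limma gave an adjusted p of 0.770.

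Fgf1 (chr18:38838673-38929472, minus strand) was detected in all 10 libraries, with 415, 354, 242, 148 and 221 normalized counts in wild type 1 to 5. Mgp-KO 1 to 5, in this order, had 343, 40.5, 355, 108 and 286. The groups overlapped, and Mgp-KO 2 was the lowest library at 53 reads. The log2 fold change, in limma always of log2(normalized count + 1) in libraries labelled Mgp-KO minus wild type, was -0.58 ± 0.56 (SE), with an adjusted p of 0.775 in limma. The count models of edgeR and DESeq2, which fit the recovered reads instead, both gave -0.29. In limma, leaving out Mgp-KO 2 gave -0.06, and within replicates 1 to 3 it went from -0.94 to 0.085 without that library. Mgp-KO 2 also had the lowest value of the 10 libraries for Nrg4, Ptgds and Enpp2 and a high skeletal muscle marker sum. Mgp-KO 5 had a similarly high sum, but the highest Nrg4 (1709) and Enpp2 (1277) of the libraries labelled Mgp-KO. The part of muscle RNA in these values was not tested.

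Gdf15 (chr8:70629393-70632456, minus strand), a stress-induced member of the TGF-beta superfamily, had 9.30, 2.99, 4.41, 11.7 and 1.73 normalized counts in wild type. In Mgp-KO 1 to 5 it had 6.03, 6.88, 6.57, 0 and 1.17. These are 32 reads in all in wild type and 26 in the libraries labelled Mgp-KO, 7 of the 10 libraries were above the floor, and the groups overlapped. Bmp8b (chr4:123105165-123132099, plus strand), a bone morphogenetic protein of brown fat that is known to sensitise it to adrenergic input, had at most 3 reads in any library. Its sums were 10 reads in wild type and 7 in the libraries labelled Mgp-KO, no library was above the floor, and its paralog Bmp8a had a mean of 0.150 and 0.778 normalized counts. Neither gene passed the filter of a mean of 10 normalized counts, and without the filter limma gave adjusted p-values of 0.782 for Gdf15 and 0.863 for Bmp8b.

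**Figure D2:**
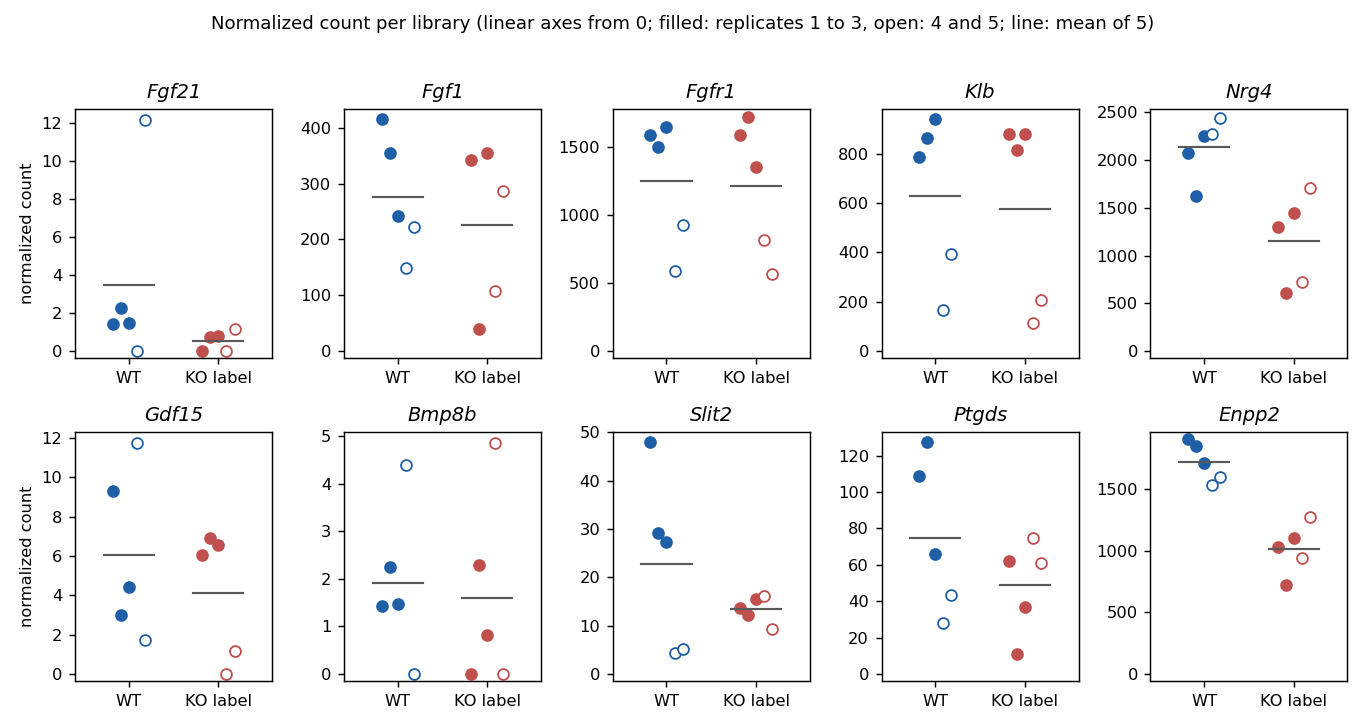
Normalized count of each of the 10 genes in every library on linear axes from 0, wild type in blue and libraries labelled Mgp-KO in red, with filled points for replicates 1 to 3, open points for replicates 4 and 5 and a line at the mean of 5. Enpp2 separates the groups, with 1538 to 1910 in wild type and 722 to 1277 under the Mgp-KO label; the open points of Fgfr1 and Klb lie below the filled ones in both groups.

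The receptor gene Fgfr1 (chr8:25513654-25575718, plus strand) had 1589, 1499, 1648, 592 and 931 normalized counts in wild type 1 to 5. Under the Mgp-KO label the values were 1592, 1724, 1356, 816 and 569. The groups overlapped over nearly their whole range, and the 4 lowest values were those of replicates 4 and 5. The log2 fold change was -0.07 ± 0.37 (SE) with a 95% interval of -0.87 to 0.74 and an adjusted p of 0.969 in limma.

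Klb (chr5:65348314-65384007, plus strand), the gene of the FGF21 co-receptor, had 787, 864, 941, 166 and 395 normalized counts in wild type. The libraries labelled Mgp-KO had 880, 814, 879, 113 and 206. Replicates 1 to 3 of both groups lay between 787 and 941 and replicates 4 and 5 between 113 and 395. The log2 fold change was -0.30 ± 0.66 (SE), with an adjusted p of 0.912 in limma, and was -0.13 in edgeR and -0.12 in DESeq2. Within replicates 1 to 3 it was -0.01 ± 0.11 for Klb and -0.03 ± 0.12 for Fgfr1, and within replicates 4 and 5 it was -0.74 ± 0.53 for Klb, with an adjusted p of 0.687.

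The sets of replicates were compared directly, with genotype in the model. Klb was lower in replicates 4 and 5 by -2.11 ± 0.26 on the log2 scale (limma adjusted p 0.000191), Fgfr1 by -1.14 ± 0.16 (adjusted p 0.000463) and Slit2 by -1.36 ± 0.48 (adjusted p 0.0430). Of the 7 genes tested, 3 were thus lower and 0 higher, beside 19.9% of all 13714 tested genes that were lower in that set. Klb and Fgfr1 also passed in edgeR and without the filter on low values, but Slit2 did not, with adjusted p-values of 0.0734 and 0.0741. The values of Slit2 lay apart between the sets in wild type, at 27.2 to 47.9 and 4.40 to 5.19, and overlapped between the sets in the libraries labelled Mgp-KO. The other 4, Fgf1, Nrg4, Ptgds and Enpp2, gave adjusted p-values of 0.595 to 0.987. Read depth and the share of mitochondrial rRNA reads divide the libraries of both groups in the same way, and their part in the difference between sets cannot be told apart.

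Nrg4 (chr9:55220222-55326844, minus strand), whose product acts on ErbB receptors and is secreted by brown adipocytes, had 2074, 1628, 2251, 2276 and 2443 normalized counts in wild type 1 to 5. The libraries labelled Mgp-KO had 1296, 610, 1442, 720 and 1709. Wild type 2 and Mgp-KO 5 were the only libraries whose values crossed, and the group means were 2134 ± 312 and 1156 ± 473 (SD, n = 5), 54.1% of wild type. The log2 fold change was -0.98 ± 0.29 (SE) with a 95% interval of -1.61 to -0.36, an unadjusted p of 0.00520 and an adjusted p of 0.225 in limma. Replicates 1 to 3 alone gave -0.91 ± 0.32 and replicates 4 and 5 alone -1.09 ± 0.46, with adjusted p-values of 0.156 and 0.679. Within replicates 1 to 3 it was -0.52 without Mgp-KO 2. When the set of replicates was added to the model, the adjusted p was 0.0866 in limma and 0.0294 in DESeq2 on the recovered reads.

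Enpp2 (chr15:54838901-54952892, minus strand) encodes autotaxin, a secreted phosphodiesterase that makes the signalling lipid lysophosphatidic acid from lysophosphatidylcholine. It had 1910, 1855, 1711, 1538 and 1602 normalized counts in wild type 1 to 5. The libraries labelled Mgp-KO had 1033, 722, 1103, 939 and 1277. The groups did not overlap, with the highest library labelled Mgp-KO at 1277 and the lowest wild type at 1538, and the means were 1723 ± 159 and 1015 ± 205 (SD, n = 5), 58.9% of wild type.

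The log2 fold change of Enpp2 was -0.78 ± 0.18 (SE) with a 95% interval of -1.18 to -0.39. Its unadjusted p was 0.000997 and its adjusted p 0.118 in limma over all 10 libraries. Enpp2 was the only one of the 7 tested genes without overlap between the groups, beside 2.11% of all tested genes that did not overlap and were lower and 1.39% that were higher. With a set term the adjusted p was 0.0321, and Enpp2 was then the only gene of the 7 to pass, beside 1.54% of all genes passing in this direction. It passed within replicates 1 to 3, with a log2 fold change of -0.96 ± 0.17 and an adjusted p of 0.0326 (1.65% of genes passed and were lower), but of the 6 fits that left out 1 of those libraries only the fit without Mgp-KO 2 passed, at 0.00917, and the others ranged up to 0.149. In this set edgeR passed Enpp2 (adjusted p 0.0366), and limma without the filter on low values did not (0.119). Without Mgp-KO 4 and 5, whose Mgp reads go against the label, it was -0.87 with an adjusted p of 0.0421 (0.955% of genes passed and were lower). Within replicates 4 and 5 it was -0.52 ± 0.32 with an adjusted p of 0.679.

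Nrg4 and Enpp2 were lower without overlap in each set of replicates taken alone, a pattern shared by 6.31% of all tested genes. On the recovered reads, DESeq2 gave Enpp2 an adjusted p of 0.00414 and Nrg4 0.0963, and 1.26% of the genes with an adjusted p passed and were lower. With the set term DESeq2 passed both, Enpp2 at 0.000622, and 3.91% of genes passed and were lower. The edgeR quasi-likelihood test passed neither, with adjusted p-values of 0.127 for Enpp2 and 0.266 for Nrg4. In a whole tissue, fewer cells of a type and less RNA per cell cannot be told apart. The summed brown adipocyte markers were also lower without overlap in each set, at 213506 to 229301 in wild type against 150030 to 185843 in replicates 1 to 3, and 408590 to 411585 against 209954 to 300995 in replicates 4 and 5. Fabp4 and Ucp1, with wild-type means of 144961 and 60876 normalized counts, were the largest parts of this sum. Within replicates 1 to 3 the log2 fold change was 0.04 for Fabp4 and -2.76 for Ucp1. Of the 12 markers, 3 were lower without overlap in both sets (Ucp1, Dio2 and Elovl3). Ucp1, the uncoupling protein, did not overlap over all 10 libraries either. Its mean was 16.8% of wild type, with adjusted p-values of 0.0601 in limma, 0.0127 with the set term and 1.7e-05 in DESeq2. Elovl3 passed with the set term (0.0104) and in DESeq2 (0.0271), and Dio2 with the set term (0.0228). Of the other 9, none passed these tests. Plin1 and Prdm16, at 50.9% and 65.1% of wild type by the means, were lower without overlap in replicates 1 to 3, and Zic1 and Pparg, at 161% and 112%, were higher without overlap there. In replicates 4 and 5, Zic1 and Fabp4 were lower without overlap. The means of Cidea, Ppargc1a, Adipoq and Fabp4 were 76.3% to 86.4% of wild type and that of Cox8b was 99.7%. The part of these markers in the lower Nrg4 and Enpp2 was not tested.

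Slit2 (chr5:47983138-48307733, plus strand), a secreted guidance protein of which a fragment is released by beige and brown fat, had 47.9, 29.2, 27.2, 4.40 and 5.19 normalized counts in wild type 1 to 5. In Mgp-KO 1 to 5 the values were 13.6, 12.2, 15.6, 16.2 and 9.38. In wild type, replicates 4 and 5 had only 3 reads each, and the libraries labelled Mgp-KO lay between the wild-type sets. Over all libraries the log2 fold change was -0.26 ± 0.62 (SE) with an adjusted p of 0.923 in limma. The count models gave -0.81 in both edgeR and DESeq2, with adjusted p-values of 0.596 and 0.604, and the mean was 58.8% of wild type. Replicates 1 to 3 alone gave -1.23 ± 0.30 (adjusted p 0.0691), and replicates 4 and 5 alone gave 1.21 ± 0.92 (adjusted p 0.704).

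Ptgds (chr2:25466709-25470046, minus strand) encodes lipocalin-type prostaglandin D synthase, a secreted enzyme that makes prostaglandin D2 and also carries lipids. It had 109, 127, 66.2, 27.8 and 43.3 normalized counts in wild type 1 to 5. For Mgp-KO 1 to 5 the values were 61.8, 10.7, 37.0, 74.5 and 61.0. As with Slit2, the libraries labelled Mgp-KO were lower without overlap in replicates 1 to 3 and higher without overlap in replicates 4 and 5. The log2 fold change was -0.64 ± 0.55 (SE) over all libraries (limma adjusted p 0.739), -1.69 ± 0.59 within replicates 1 to 3 (adjusted p 0.156) and 0.94 ± 0.51 within replicates 4 and 5 (adjusted p 0.679). Without Mgp-KO 2 it was -0.18 over all libraries and -1.01 within replicates 1 to 3. Of the listed markers of the leptomeninges and mesothelium, Msln and Krt19, which mark mesothelium and epithelium, were at most 4.49 normalized counts in any library, and Slc22a6 and Upk3b were not analysed here.

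The change of direction of Slit2 and Ptgds between the sets was tested as an interaction. The difference of the log2 fold changes was 2.44 ± 0.63 for Slit2 and 2.63 ± 0.86 for Ptgds, and the adjusted p was 0.455 for both in limma. None of the 7 genes passed this test, beside 1 of 13714 genes (0.00729%), and the unadjusted p was under 0.05 for these 2 of the 7, at 0.00302 and 0.0115, and for 10.3% of all genes. The pattern of lower without overlap in replicates 1 to 3 and higher without overlap in replicates 4 and 5 was found in 1.35% of all tested genes. In replicates 1 to 3 alone, 4 of the 7 tested genes (Nrg4, Slit2, Ptgds and Enpp2) were lower without overlap, beside 15.1% of all genes.

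**Figure D3:**
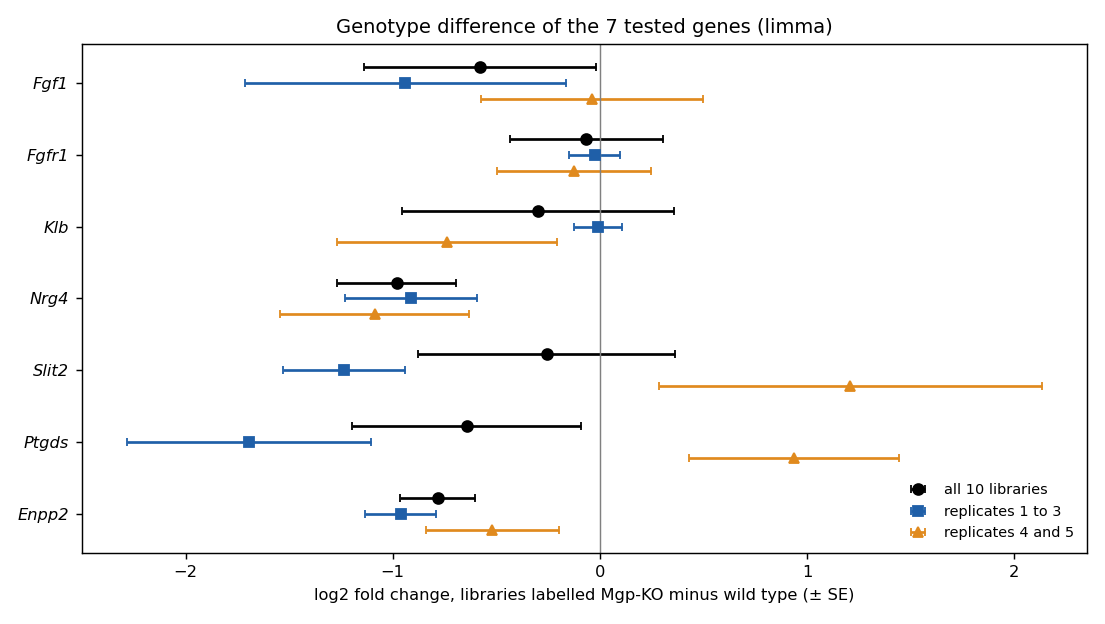
Log2 fold change of the 7 tested genes in limma, libraries labelled Mgp-KO minus wild type, with bars of 1 SE, over all 10 libraries (circles), replicates 1 to 3 (squares) and replicates 4 and 5 (triangles). Nrg4 and Enpp2 lie more than 1 SE left of 0 in all 3 fits, and Slit2 and Ptgds lie left in replicates 1 to 3 and right in replicates 4 and 5.

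Counted together, 0 of the 7 tested genes passed an adjusted p under 0.05 in limma over all 10 libraries, where 9 of 13714 genes passed (0.0656%). At an unadjusted p under 0.05, 2 of the 7 were lower (Nrg4 and Enpp2) and 0 higher, beside 5.69% of all genes that were lower at that level. By other tools on all 10 libraries, edgeR passed 0 of the 7, where 3 of 13714 genes passed. DESeq2 passed 1 (Enpp2), beside 2.26% of all genes with an adjusted p. All 7 log2 fold changes were below 0, with a median of -0.58, where the median of all tested genes was 0.03. The signs of Fgfr1, Klb and Slit2 turned when single libraries were left out. Within replicates 4 and 5, where no gene passed (0.0%), 855 genes had an unadjusted p under 0.05 and none of the 7 did.

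The genes around these factors were taken from lists chosen by role. Of the FGF receptors and co-receptors, 6 of 8 passed the filter on low values, none passed limma's test over all libraries or had an unadjusted p under 0.05, and edgeR and DESeq2 passed none. The median log2 fold change was -0.15. Fgfrl1, a decoy receptor without a kinase domain, had the highest level of the list in normalized counts, with 1311 ± 413 and 1415 ± 658 (SD, n = 5), and Kl, which encodes the alpha-Klotho protein used by FGF23, had at most a mean of 1.75. The difference between sets seen in Fgfr1 and Klb was shared by Fgfr2 and Fgfrl1, and Fgfr3 was higher in replicates 4 and 5.

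Of the FGF ligands, 8 of 13 in the table passed the filter, and none passed limma's test, edgeR's or DESeq2's. Fgf14, an intracellular family member that regulates sodium channels rather than receptors, was the 1 ligand of 8 with an unadjusted p under 0.05 (0.00447), where 10.4% of all genes had one in either direction. It had means of 66.1 and 25.3 normalized counts and a log2 fold change of -1.53 ± 0.44 (SE), with an adjusted p of 0.215 in limma and 0.0289 in DESeq2 with the set term. Fgf14 stood at -0.77 on the log2 scale in replicates 1 to 3 and at -2.67 in the other set. Fgf1 had the highest level of this list, and the list's median log2 fold change was -0.27.

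Of the genes of FGF signal transduction and feedback, 16 of 17 passed the filter, 7 log2 fold changes were below 0 and 9 above, and none passed limma's test over all libraries, with 3 at an unadjusted p under 0.05 (Dusp6, Spry1 and Spred3), beside 10.4% of all genes, 0 past edgeR's test and 1 past DESeq2's. Among all genes with an adjusted p, 2.26% passed in DESeq2 in either direction. Dusp6, which encodes a phosphatase that inactivates ERK and is itself induced by FGF signalling, was lower without overlap between the groups, with 1001 ± 423 and 412 ± 130 normalized counts (SD, n = 5). Its log2 fold change was -1.25 ± 0.28 (SE), with an adjusted p of 0.110 in limma, 0.0321 with the set term, 0.0192 within replicates 1 to 3 and 0.00523 in DESeq2. Spred3, a Sprouty-related inhibitor of the pathway, was higher without overlap, with 34.1 ± 16.1 and 70.6 ± 15.5 normalized counts and an adjusted p of 0.254 in limma. Spry1, another feedback inhibitor, had a log2 fold change of 0.98 with an adjusted p of 0.237, and Ptpn11, which encodes the phosphatase SHP2, had the highest level. In DESeq2 with the set term, Spry1 (adjusted p 0.00740) and Spred3 (0.0166) passed as higher and Dusp6 (0.000333) as lower, where 3.5% of all genes passed and were higher. Gab1, which encodes a docking protein of the pathway, was higher within replicates 1 to 3, by 0.65 ± 0.11 (SE) with an adjusted p of 0.0266 in limma, where 1.9% of all genes passed and were higher. Feedback genes thus had estimates in both directions, and the list's median was 0.07.

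Of the regulators and integrated stress response genes, all 14 passed the filter, and 10 log2 fold changes were below 0 and 4 above (Chac1 0.84, Trib3 0.79, Ddit3 0.31 and Ppara 0.23). None passed limma's or edgeR's test over all libraries. DESeq2 passed 1 of the 14 (Sesn2), beside 2.26% of all genes with an adjusted p. At an unadjusted p under 0.05 in limma, 3 of the 14 were lower, beside 5.69% of all genes: Sesn2, a stress-induced sestrin, Psat1, an enzyme of serine synthesis, and Atf5, a transcription factor of the stress response. Sesn2 had means of 440 ± 150 and 195 ± 53.4 normalized counts (SD, n = 5) and a log2 fold change of -1.12 ± 0.30 (SE), with adjusted p-values of 0.188 in limma, 0.0205 with the set term and 0.0134 in DESeq2. Atf4, whose product is known to bind C/EBP-ATF elements, had a log2 fold change of -0.16 with an adjusted p of 0.878 in limma. Its log2 fold change was 0.26 in replicates 1 to 3 and -0.80 in the other set, and the interaction gave an adjusted p of 0.455. Mlxipl, the gene of ChREBP, which can bind E-box sequences, had the highest level of the list and a log2 fold change of -0.22 with an adjusted p of 0.811.

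Of the receptors of the other factors, 11 of 16 in the table passed the filter and none passed limma's test, edgeR's or DESeq2's, with 0 at an unadjusted p under 0.05. Erbb3 and Erbb4, which encode receptors for neuregulins, had 163 ± 71.9 and 132 ± 58.9 normalized counts in wild type (SD, n = 5) and adjusted p-values of 0.947 and 0.958 in limma. Of the receptors of lysophosphatidic acid, the product of autotaxin, Lpar6 was the highest in normalized counts with a wild-type mean of 742, and Lpar2 had a log2 fold change of 1.61 within replicates 1 to 3 with an adjusted p of 0.0367 in limma. Over all libraries Lpar2 had 11.0 ± 6.82 and 31.4 ± 17.4 normalized counts and an adjusted p of 0.484. Acvr1c, which encodes the receptor ALK7, had the highest level of the list.

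Of the enzymes that stand beside Ptgds and Enpp2 in lipid signalling, 9 of 10 passed the filter and none passed limma's test, edgeR's or DESeq2's. Ptgs1, the gene of cyclooxygenase 1, which supplies the substrate of prostaglandin D synthase, had 58.5 ± 7.62 and 103 ± 29.8 normalized counts (SD, n = 5), a log2 fold change of 0.77 and an adjusted p of 0.257 in limma. It was the only 1 of the 9 with an unadjusted p under 0.05, beside 10.4% of all genes, and passed in DESeq2 with the set term (adjusted p 0.0310). Plpp3, a phosphatase that breaks down lysophosphatidic acid, had the highest level, with 1180 ± 177 and 1538 ± 530 normalized counts and an adjusted p of 0.673.

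Of 18 other factors known to be secreted by brown fat, 13 passed the filter and none passed limma's test, edgeR's or DESeq2's over all libraries. Igf1, the gene of insulin-like growth factor 1, was the 1 of the 13 with an unadjusted p under 0.05, beside 10.4% of all genes. It had means of 883 ± 372 and 455 ± 428 normalized counts (SD, n = 5), a log2 fold change of -1.25 ± 0.48 (SE), and adjusted p-values of 0.363 in limma, 0.0408 with the set term and 0.00981 within replicates 1 to 3. Vegfa, the angiogenic growth factor, had the highest level, with 6762 ± 1500 and 8906 ± 3697 normalized counts and an adjusted p of 0.851. Slit3, a paralog of Slit2 expressed at a higher level, had a log2 fold change of 0.30 with an adjusted p of 0.923. The median log2 fold change of this list was 0.19, where that of the 7 tested genes was -0.58.

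**Figure D4:**
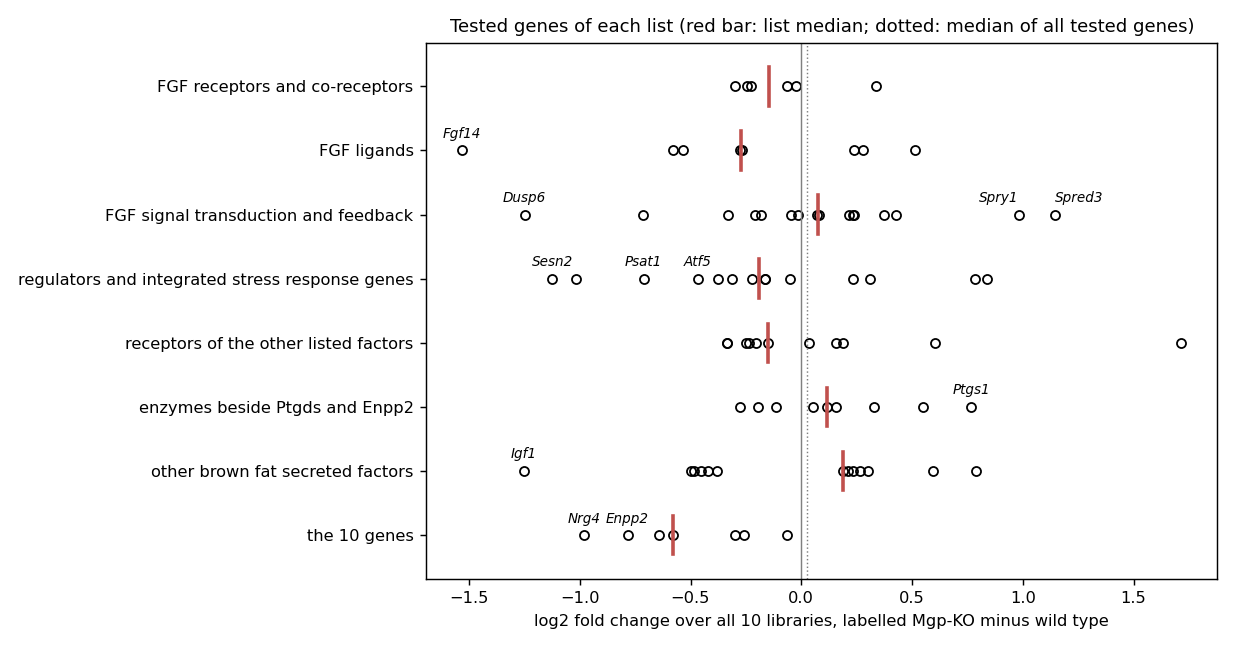
Log2 fold change over all 10 libraries for the tested genes of each list, libraries labelled Mgp-KO minus wild type, with 1 circle per gene, a red bar at the list's median and a dotted line at 0.03, the median of all tested genes. The names mark Nrg4 and Enpp2, the genes whose groups did not overlap and the other genes with an unadjusted p under 0.05; the 7 tested genes among the 10 factors lie between -0.98 and -0.07.

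For each of the 7 tested genes, the gene with the most similar profile was found by Pearson's r of log2(normalized count + 1) over the 10 libraries, after the mean of each set of replicates was subtracted. These are descriptions over libraries that share depth and genotype labels. The profile of Nrg4 was most like that of Gys2, which encodes the glycogen synthase of liver (r = 0.988), and that of Enpp2 most like Odf3l1 (r = 0.972). The nearest genes were Fzd7, a Wnt receptor, for Klb (r = 0.979), Rassf2 for Fgfr1 (r = 0.947), Esr1, the estrogen receptor, for Fgf1 (r = 0.971), Ect2 for Slit2 (r = 0.942) and Cd74, the invariant chain of antigen presentation, for Ptgds (r = 0.967). Odf3l1 ranged from 79.2 to 152 normalized counts in wild type and from 3.82 to 45.7 in the libraries labelled Mgp-KO.

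Some exons of the 10 genes overlap those of genes on the other strand, and the strand setting of the counting is not stated, so reads there may be shared. These are Nrg4 with Fbxo22 over 368 bases and Gm15625 over 177, Enpp2 with Gm26684 over 345, Fgfr1 with Gm16159 over 164, and Bmp8b with Gm17244 over 339 and Ppie over 133. The RefSeq start site of Nrg4 used for the promoter lies inside the longer GENCODE gene.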

How the data were processed

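The deposited values are a signal per gene, the normalized count: per the methods, single-end reads (50 bases) were aligned by the authors to mm10 in STAR 2.5.3a, whose GeneCounts mode gave counts that were then divided by the DESeq2 1.38.3 size factor of the library. The annotation release and strand setting are not given in the sources used here. Of all values, 100% corresponded to whole numbers of reads (tolerance 0.01 reads, largest deviation 0.00181), so the reads were recovered. A floor of 3 reads was used, which covers counting error only: without molecular identifiers, reads are not independent molecules.

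Genotypes were compared with limma 3.58.1 in R 4.3.3 (mean-variance trend, two-sided) on log2(normalized count + 1). The 13714 genes tested had a mean of 10 or more across libraries, p-values were adjusted over all of them (Benjamini-Hochberg), and the threshold was 0.05. The same fit was made within replicates 1 to 3 and within replicates 4 and 5, with an interaction and with a set term. Alternatives were other pseudocounts, filters and normalizations, a replicate block, left-out libraries, and edgeR 4.0.16 and DESeq2 1.42.0 on recovered reads. Leaving out libraries within replicates 1 to 3 was added after the data were seen. Intervals of 95% come from limma.

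The 10 genes and the lists were chosen with earlier results of these data known, as were the sets of replicates. Named genes are the 10, Mgp, list members past the threshold or without overlap between groups over all 10 libraries, the highest member of each list and the most similar gene of each tested factor. Other list and marker genes were named after their values were seen. Of the list genes, 6 were not in the table (Fgf15, Gfral, Ptgdr, Hoxc9, Upk3b and Slc22a6). Lists of endothelial, stromal, macrophage, mural, Schwann cell, white fat and hepatocyte markers were summed too: endothelial sums were 13901 to 23050 in wild type and 16095 to 41437 in the libraries labelled Mgp-KO, stromal sums 15037 to 46925 and 10566 to 26135, macrophage sums 652 to 1100 and 699 to 1125, mural sums 7293 to 12157 and 6809 to 11334, Schwann cell sums 759 to 2371 and 758 to 1259, white fat sums 283 to 611 and 84.1 to 1937, and hepatocyte sums 0 to 8.79 and 0 to 162. In replicates 1 to 3, stromal sums (22718 to 46925 against 10566 to 21885.5) and Schwann cell sums (1200 to 2371 against 799 to 955) were lower without overlap. The other sums of this paragraph overlapped there. In replicates 4 and 5 the stromal and Schwann cell sums overlapped. All 6 endothelial log2 fold changes were above 0, with 0 past limma's test.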

Additional observations from a re-analysis of the deposited data

Results flagged for a closer look

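Among the 10 genes in each group of 5 libraries, 1 of 20 groups had a library far from the others. Fgf21 in wild type 5 had 12.1 normalized counts (7 reads), where the other 4 wild-type libraries had 0 to 2.25. The gap to the nearest library, divided by the range of the group, was above Dixon's 95% critical value of 0.71 for 5 values, which chance passes in about 1 group of 20.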

How the results depend on the processing

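Over all 10 libraries, 9 genes passed in limma. The count was 29 with a pseudocount of 10, 1 without the filter on low values, 15 with a mean of at least 50, 34 after quantile normalization, 3 in edgeR, 374 in DESeq2, 1152 in DESeq2 with the set term, 324 in limma with the set term, 267 without Mgp-KO 4 and 5, 486 in replicates 1 to 3 and 0 in replicates 4 and 5 (855 at an unadjusted p under 0.05). It ranged from 0 (without wild type 2, 3 or 5 or Mgp-KO 1 or 3) to 93 (without Mgp-KO 4) with 1 library left out, and was 34 without wild type 4 and 5 without Mgp-KO 5. Of the 10 factors, 0 passed in limma, 2 in DESeq2 with the set term, and 1 each in DESeq2, with the set term, without Mgp-KO 4 and 5 and in replicates 1 to 3. With the replicate block 270 genes passed in limma, 1 of them a factor (Nrg4, adjusted p 0.0468), and 222 in edgeR, 0 of them a factor (Nrg4, adjusted p 0.0594). Libraries of the same number had correlations of deviations of 0.0559 to 0.527, and not every library correlated best with its own number, so the numbers were not taken as pairs. Within replicates 1 to 3 the count was 127 without the filter (Enpp2 not among them), and 26 to 811 with 1 library left out, highest without Mgp-KO 2.

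Log2 fold changes turned sign as follows, and the cause was not tested. Without Mgp-KO 4 and 5, Fgfr1 had 0.41 and Klb 0.69. In replicates 4 and 5 alone, Slit2 had 1.21 and Ptgds 0.94. With 1 library left out, Fgfr1 ranged from -0.31 to 0.18, Klb from -0.72 to 0.18 and Slit2 from -0.67 to 0.13. Within replicates 1 to 3 these ranges were -1.46 to 0.085 for Fgf1, -0.10 to 0.071 for Fgfr1 and -0.074 to 0.055 for Klb. Nrg4 and Enpp2 stayed below 0 under all 26 alternatives, and with 1 library left out ranged from -1.15 to -0.78 and from -0.87 to -0.67. For Enpp2 no left-out library could turn the sign, since its groups did not overlap. In limma the replicate block, the set term, other filters and a fit without variance trend return the same estimate by design. These alternatives therefore do not test the sign. Depth limits Fgf21 and Bmp8b, of which 1 and 0 libraries were above the floor, and Gdf15 with 7.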
